A study of Mus musculus with 12 samples.

Results

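Naive CD4 T cells from mouse spleen of 2 genotypes, named KIKO and KI in the labels, were compared before any stimulus. The comparison uses 3 KIKO naive and 3 KI naive libraries and covers every transcribed locus with a level of at least 1 FPKM in at least 3 of these 6 libraries, which is 9122 of the 15125 loci listed anywhere in the series. FPKM, the unit of all levels here, divides the fragments of a feature by its length and by the size of the library. The series also holds 3 libraries of each genotype stimulated for 16 h through CD3 and CD28 with antibody-coated beads. Those 6 enter only the estimate of spread and a few values given side by side. Both genotype names begin with KI. The labels do not spell either name out, and the sources used here do not give the altered gene, the promoter of any transgene, the age of the mice or the number of animals behind a library. The title of the series concerns a faulty proteasome in T cells, and the question put to these 6 libraries is how KIKO cells differ at rest.

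The proteasome is the complex that degrades proteins tagged with ubiquitin. Its barrel-shaped 20S core holds the cutting sites, and a 19S cap made of a base and a lid recognises the ubiquitin chain, unfolds the protein and feeds it in. The ATPase VCP and its cofactors pull tagged proteins out of membranes and complexes and hand them over through ubiquitin shuttles. When proteasomes are too few, the transcription factor NRF1 (gene Nfe2l1) is known to be cut and released with the help of VCP, NGLY1 and DDI2 and to raise the genes of proteasome subunits through a promoter sequence called the antioxidant response element. Naive CD4 T cells are small resting cells that wait for antigen, rely on survival signals and keep most effector genes silent.

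That promoter sequence was looked for in the genes that the results turn on. Most genes of the core and cap did not hold it. Promoters were taken from RefSeq (build GRCm38.p6), from 250 bases before to 50 after the transcript start, and searched for TGACNNNGC on both strands. Of 27 genes of the core and cap with a promoter in the table, 6 (22.2%) hold this sequence, against 1215 of 7172 described genes (16.9%) and 3781 of all 27025 genes in the table (14%). Stretches from 5 of these 6 and from Vcp are shown in lower case on the gene's own strand, with the matching letters in capitals. Only those of Psmb5 and Psmb6 reach the transcript start, and the others end before it. Relative to that start, the capitals begin at -47, -9, -227, -162, -247 and -114, in the order shown. Psma1, Psmc2, Psmd1 and Psmd14, whose rises are given below, held no match before the start. In Psmc6 and Psmd12 the match lies on the opposite strand, so the capitals there are its reverse complement.
Psmb5, chr14:54617996-54618087, minus strand: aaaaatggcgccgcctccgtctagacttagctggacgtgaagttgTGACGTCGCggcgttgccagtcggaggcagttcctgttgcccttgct
Psmb6, chr11:70525303-70525356, plus strand: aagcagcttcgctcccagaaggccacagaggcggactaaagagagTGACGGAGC
Psmc6, chr14:45329574-45329650, plus strand: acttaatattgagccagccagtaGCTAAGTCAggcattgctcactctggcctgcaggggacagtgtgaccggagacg
Adrm1, chr2:180171381-180171479, plus strand: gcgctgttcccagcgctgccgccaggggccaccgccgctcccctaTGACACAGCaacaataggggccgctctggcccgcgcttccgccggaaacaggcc
Psmd12, chr11:107479278-107479334, plus strand: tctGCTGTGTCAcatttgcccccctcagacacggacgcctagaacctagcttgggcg
Vcp, chr4:43000568-43000666, minus strand: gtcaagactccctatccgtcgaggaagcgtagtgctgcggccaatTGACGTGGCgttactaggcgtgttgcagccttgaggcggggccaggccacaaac

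The 6 naive libraries listed between 9771 and 10916 loci each. The read depth is unknown. Across loci, Pearson's r between replicates was 0.952 to 0.981, and between libraries of different genotype 0.933 to 0.965. KIKO naive 2 stood apart with 85319 lines against 100188 to 109993 in the other naive libraries. It also held neutrophil transcripts. The 12 listed markers of neutrophils summed to 305 FPKM there, with S100a9 at 110, S100a8 at 66.0 and Ngp at 55.1, against at most 2.23 in the other 5 libraries. Markers of monocytes and macrophages summed to 48.5 in KIKO naive 2 and to 5.35 to 8.72 elsewhere. Those of NK cells summed to 39.1 in KIKO naive 2 and to 11.1 to 19.4 elsewhere. Gzma stood at 8.01 there and was not listed in the other naive libraries. The collagen genes Col1a1 and Col1a2 were also highest in KIKO naive 2 (6.84 and 5.65), ahead of KI naive 3 (4.29 and 2.23). None of the neutrophil markers reached 1 FPKM in 3 libraries, so none is among the loci described. The 13 listed CD4 T cell markers summed to 3271 to 3330 in KI and to 2452 to 2792 in KIKO cells, which do not overlap (exact two-sided permutation test, p = 0.1, the smallest that 3 against 3 can give), and 3 of the 12 described were called lower. Whether cell mixture had a part in any result below was not tested. Of the CD8 T cell markers, Cd8a was not listed in 5 of the 6 libraries. Cd8b1, a chain of the CD8 coreceptor, rose from 6.51, 7.38 and 8.12 to 12.5, 16.1 and 12.6. Summed markers also did not overlap for gamma-delta and invariant T cells (0.598 to 3.6 in KI, 4.03 to 5.42 in KIKO), for erythroid cells and platelets (2.55 to 6.21 against 7.15 to 10.5) and for stroma and endothelium (70.3 to 84.3 against 51.3 to 59.4), the last mostly Pecam1. Car2 made up all of the erythroid and platelet sum in KI cells and most or all of it in KIKO cells (6.85, 6.80 and 10.5). B cell markers overlapped, at 114 to 143 against 96.1 to 126, and were mostly Ighm (111 to 139 against 93.5 to 118).

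Of the loci described, 623 were higher (6.83%) and 376 lower (4.12%) in KIKO cells by limma at an adjusted p under 0.05, together 11.0%. Over all 9743 loci tested the share called was 10.4%. All adjusted p below are two-sided limma values with Benjamini-Hochberg adjustment over the 9743 loci tested, n = 3 per genotype, and differences are log2(FPKM + 1) of KIKO minus KI with their standard error. This scale understates the change of genes at low levels. The labels do not say that replicates are separate animals, so the p-values measure the spread between samples, which may be technical. The median difference over all loci described was 0.05, and 56.8% of loci lay above 0. The split between directions depended on the scaling. It was 1109 higher and 256 lower with libraries rescaled to an equal sum (median 0.14), 423 and 536 with median-ratio scaling (median -0.01), and 482 and 495 after quantile normalization. Most changes were small. Of the 999 called loci, 104 rose and 69 fell by more than 1 on this scale. The called loci that rose had a median level of 8.71 FPKM in KI cells, and those that fell had 24.2. Levels of the 2 genotypes did not overlap at 1870 loci that were higher (20.5%) and 1281 that were lower (14%). The count of calls was smaller with 1 KI library left out, at 494, 554 and 529 without KI naive 1, 2 and 3. It was 678 without KIKO naive 2. A gene written below as rising or falling kept its call with each of the 6 libraries left out in turn, unless a library is named in its paragraph. With the 6 naive libraries fitted alone, Psma2, Psma3, Actb, B2m, Rpl7a and Snhg12 were not called, with adjusted p of 0.10, 0.079, 0.084, 0.057, 0.061 and 0.060. Nor were Erp27, Pomp, Selplg, Cd3e, Prf1, Psme1, Snhg8, BE692007, Spaca1 and Irak3 in that fit (0.058 to 0.12). Ctla4, Icos and Tent5a also lost the call there, with values given below. RNA was taken from whole populations, so fewer cells of a kind and less RNA per cell cannot be told apart in any value here. A gene not listed in a library was set to 0, which need not mean silence: Gapdh was listed in none of the 6. At 40 loci only KI libraries and at 44 only KIKO libraries reached 1 FPKM. These had to differ in order to be described, and 24 of the 40 were called lower and 26 of the 44 higher. With such loci left aside, 597 were higher and 352 lower of 9038.

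**Figure D1:**
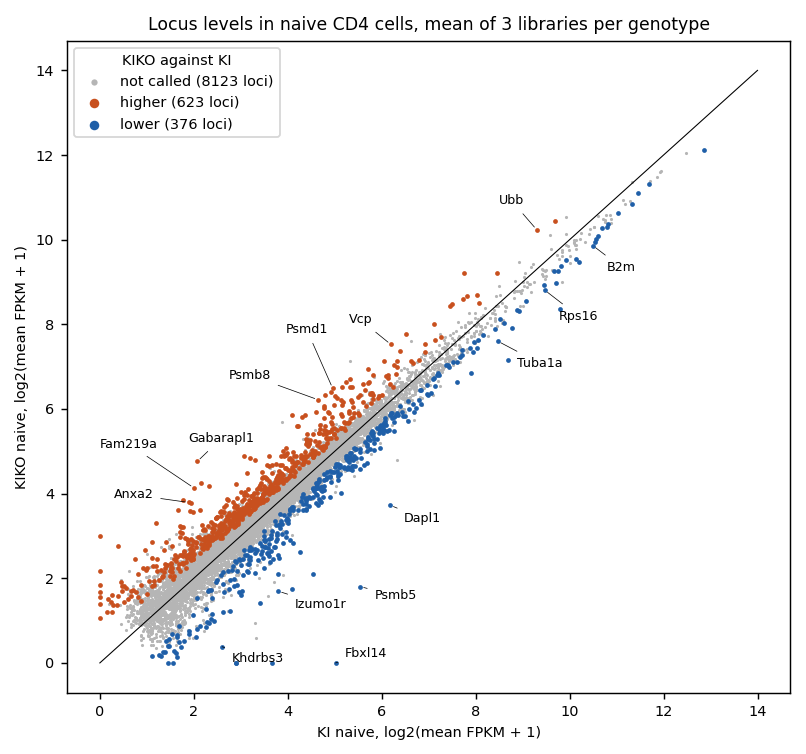
Each point is a locus, with its mean level in 3 KI naive libraries on the x axis and in 3 KIKO naive libraries on the y axis, both as log2(mean FPKM + 1), and the line marks equal levels. The 623 loci called higher and the 376 called lower lie mostly close to the line, with Gabarapl1, Fam219a and Anxa2 far above it and Psmb5, Dapl1 and Izumo1r far below.

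One gene of the 20S core went against all the others. Psmb5, which codes for the chymotrypsin-like cutting subunit, lies in a locus that the files call Mir686 and was recognised by its exon lengths. The transcript end next to its exons (GRCm39, minus strand of chromosome 14, 54851450 to 54851938) stood at 42.8, 42.9 and 43.9 FPKM in KI cells and was listed in no KIKO library. The locus kept 1.98, 2.54 and 2.95 FPKM in KIKO cells. A transcript end some distance downstream, at 54822121 to 54822163, carried the same 1.98, 2.54 and 2.95 FPKM there. It stood at 2.34, 1.98 and 1.5 in KI cells.

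The other 13 genes of the core rose, 13 of 14 members against 6.83% of all loci, with a median difference of 0.80 over the 14. Psma1, a subunit of the outer ring, rose from 36.2, 41.7 and 39.6 to 96.7, 118 and 95.1 FPKM, a 2.64-fold change. Every KIKO library was above every KI library, and the same holds for all 13. The rises were uneven. Psmb6, the caspase-like cutting subunit with the promoter sequence shown above, rose from 80.1, 78.5 and 80.6 to 113, 138 and 127 (0.65 ± 0.11, adjusted p = 0.0037), while Psma5 and Psma7 of the outer ring rose by 1.27 ± 0.15 and 1.25 ± 0.15. Psma2 stood at 72.8, 26.6 and 70.5 in KIKO cells, so its 3 libraries spread widely, with KIKO naive 2 nearest to the KI values of 19.8, 17.8 and 21.7. Psma3, at 0.81 ± 0.17, lost its call without KI naive 1 (adjusted p = 0.052).

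All 10 genes of the 19S base rose (against 6.83% of all loci), with a median difference of 1.14, the highest of the 45 pathway lists. Psmd1, the large scaffold of the base, listed under its neighbour's name Armc9, rose from 27.7, 31.5 and 30.9 to 86.1, 93.9 and 85.8 (1.53 ± 0.10, adjusted p = 5.9e-06). The ATPases Psmc2 and Psmc5 rose by 1.39 ± 0.13 and 1.31 ± 0.11, and Psmc1, another ATPase of the same ring, by 0.59 ± 0.11, the least in the base. With transcript starts alone as the measure, Psmc2 was not called (adjusted p = 0.41). Psmc6, whose promoter holds the sequence shown, rose from 33.3, 31.0 and 31.7 to 73.1, 75.3 and 78.2 FPKM, and the ubiquitin receptor Adrm1 by 1.24 ± 0.09. The libraries of each genotype lay close together for both.

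In the 19S lid, 6 of 9 genes rose (66.7%, against 6.83% of all loci) and 3 did not pass. Psmd14, the enzyme that removes the ubiquitin chain before degradation, rose from 17.1, 18.5 and 16.7 to 42.6, 49.6 and 50.2 FPKM (1.39 ± 0.12, adjusted p = 2.5e-05). Psmd3, Psmd7 and Psmd11 rose by 1.36 ± 0.11, 1.09 ± 0.12 and 1.33 ± 0.10, and Psmd12 and Psmd6 by 0.79 ± 0.12 and 0.64 ± 0.11. Psmd8, Psmd13 and Sem1 had differences of 0.31 ± 0.09, 0.37 ± 0.11 and 0.31 ± 0.16 with adjusted p of 0.052, 0.057 and 0.25. With all libraries rescaled to an equal sum, 8 of the 9 were called.

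**Figure D2:**
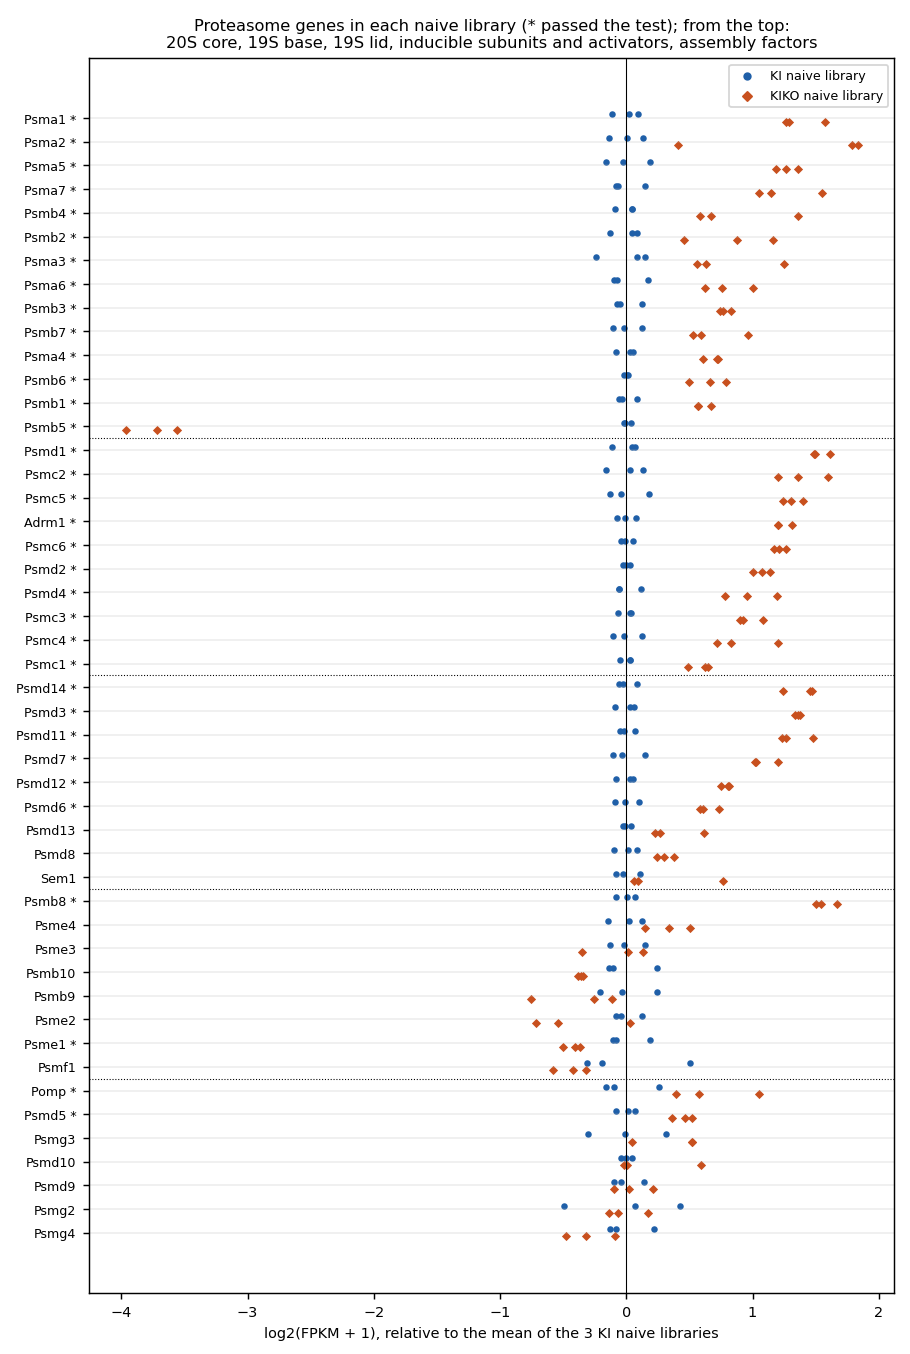
Each row is a proteasome gene, and each point is 1 library, drawn as log2(FPKM + 1) minus the mean of the 3 KI naive libraries, with KI libraries as circles and KIKO libraries as diamonds. In the 20S core and 19S base every KIKO library lies to the right of every KI library for all genes but Psmb5, whose locus lies to the left. The same holds for Psmb8 and Psme4, while the other inducible subunits and activators lie around 0 or to the left.

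Of 8 inducible subunits and activators 1 was higher and 1 lower (12.5% each, against 6.83% and 4.12% of all loci). Psmb8, which takes the place of Psmb5 in the immunoproteasome, rose from 25.3, 24.1 and 22.7 to 69.8, 78.7 and 71.7 FPKM (1.57 ± 0.11, adjusted p = 7.9e-06), the largest rise of any proteasome gene described. Its partners Psmb9 and Psmb10 had differences of -0.38 ± 0.21 and -0.36 ± 0.18 and were not called. Psme1, a subunit of the activator that replaces the 19S cap in interferon-treated cells, was lower at 176, 181 and 164 against 221, 217 and 266 (adjusted p = 0.034), a call that ended with any 1 of the 6 libraries left out (adjusted p of 0.055 to 0.11). The proteasome inhibitor Psmf1 and the activators Psme2, Psme3 and Psme4 did not pass. Of 7 assembly factors 2 were called higher (28.6%, against 6.83% of all loci), Pomp and Psmd5 (0.67 ± 0.17 and 0.45 ± 0.10). Psmd5 lost the call without KI naive 1 (adjusted p = 0.062), and Pomp without KI naive 1, KI naive 2 or KIKO naive 2 (adjusted p of 0.094, 0.082 and 0.070).

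Several genes that bring ubiquitin-tagged proteins to the proteasome were higher as well. Of 22 genes of VCP, its cofactors, ubiquitin shuttles and the processing of NRF1, 11 were higher (50%, against 6.83% of all loci) and 0 lower, and 21 of 22 differences were above 0 (median 0.41). Vcp rose from 64.8, 76.3 and 75.7 to 176, 194 and 178 FPKM (1.33 ± 0.11, adjusted p = 1.8e-05). Its cofactors Ufd1 and Nploc4, which bind ubiquitin chains, rose by 1.09 ± 0.10 and 1.03 ± 0.11, and the cofactors Ubxn4 and Nsfl1c by 0.99 ± 0.13 and 0.89 ± 0.12. Usp14, a ubiquitin protease that sits on the proteasome, rose from 5.53, 5.92 and 5.54 to 13.5, 12.8 and 14.2. Ubb, one of the genes that code for ubiquitin itself, rose from 595, 590 and 704 to 1179, 1158 and 1270. In all 4 of Vcp, Ufd1, Usp14 and Ubb the genotypes were well apart. The count of genes higher was 8 to 10 with 1 library left out. Nfe2l1 itself measured 13.9, 13.7 and 14.2 FPKM in KI cells against 14.9, 15.0 and 15.5 in KIKO cells (0.11 ± 0.12, adjusted p = 0.58), and Ddi2 and Ngly1 were not called either (0.12 ± 0.11 and 0.39 ± 0.14), though Ngly1 was called higher without KIKO naive 1 (adjusted p = 0.048). The ubiquitin-conjugating E2 enzymes hardly took part: 1 of 28 was higher (3.57%, against 6.83% of all loci), the hybrid E2 and E3 enzyme Ube2o (0.77 ± 0.14), and the median was 0.03. Of 43 cullins and their substrate adaptors 3 were higher and 1 lower (6.98% and 2.33%, against 6.83% and 4.12% of all loci). With 1 library left out, 1 was higher without KI naive 2, KI naive 3 or KIKO naive 2, 2 without any of the others, and 0 were lower.

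Autophagy, in which membranes wrap cargo for the lysosome, contributed a few strong members. Of 30 genes 5 were higher (16.7%, against 6.83% of all loci) and 0 lower, with a median of 0.11. Gabarapl1, one of the proteins that coat the autophagosome membrane, had the largest rise among the 15 genes with the largest rises. It rose from 3.59, 2.83 and 3.22 to 22.2, 31.7 and 24.5 FPKM, an 8.13-fold change (2.67 ± 0.15, adjusted p = 1.9e-06). Sqstm1, the receptor p62 that carries ubiquitin-tagged cargo, rose from 130, 130 and 150 to 235, 285 and 248. No KIKO value of either overlaps the KI values. The count higher was 3 without KI naive 1, KI naive 3 or KIKO naive 2. Of 39 genes of the lysosome and its proton pump 1 was higher and 1 lower (2.56% each, against 6.83% and 4.12% of all loci).

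Several other genes rose by a similar amount, most of them low in KI cells. Cltb, a light chain of clathrin coats, rose from 16.9, 16.0 and 14.8 to 49.7, 60.4 and 60.7 FPKM (1.77 ± 0.14, adjusted p = 1.5e-05). Fam219a, a protein of unclear function, rose from 2.92, 3.55 and 2.55 to 13.7, 19.8 and 16.2, and Pqlc3, a membrane protein, from 2.52, 2.76 and 3.31 to 13.6, 12.3 and 12.5. All 3 were also called higher in activated KIKO cells, with differences there of 2.37 ± 0.14, 2.94 ± 0.16 and 2.35 ± 0.13. Nckap1, part of the WAVE complex that directs actin, rose by 1.58 ± 0.11, Stx1a, a membrane fusion protein, by 1.86 ± 0.19, and the acyl-CoA thioesterase Acot7 by 1.89 ± 0.21. Rhbdd3, of the rhomboid family, rose by 1.69 ± 0.17. Erp27 and Mocos, at 1.77 ± 0.37 and 1.76 ± 0.32, lost the call with a pseudocount of 0.1 (adjusted p = 0.066 and 0.087). Selplg stood at 0, 0 and 3.90 in KI and 4.64, 12.8 and 9.02 in KIKO cells, and its call ended without KI naive 1, KI naive 2, KIKO naive 2 or KIKO naive 3 (adjusted p of 0.075, 0.071, 0.066 and 0.053).

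Protein folding and stress lists had between 0 and 4 genes called higher each. Of 26 heat shock chaperone genes 13 did not overlap and lay higher in KIKO cells (against 20.5% of all loci), but 2 were called higher (7.69%, against 6.83% of all loci). They were the heat shock factor Hsf2, from 5.93, 6.80 and 6.06 to 9.70, 11.7 and 10.9 FPKM, and Hsp90ab1 (0.77 ± 0.14). Hsp90ab1 lost the call when no filter on low levels was used (adjusted p = 0.059). With libraries rescaled to an equal sum 6 of the 26 were called. Of 14 genes of the chaperonin and prefoldin, which fold actin and tubulin, 13 differences were above 0 and 2 were called higher (14.3%, against 6.83% of all loci). They were Cct3 and Cct4 (0.59 ± 0.14 and 0.33 ± 0.09). The count higher was 1 without KI naive 2 or KIKO naive 1, 0 without any other library, and 5 after rescaling to an equal sum. The integrated stress response had 0 higher and 1 lower of 20 (5% lower, against 4.12% of all loci), with a median of -0.02. Ddit3, the factor CHOP that defines this list, stood at 18.5, 21.6 and 25.4 in KI and 25.2, 27.4 and 31.9 in KIKO cells, which overlap (adjusted p = 0.17). Of 29 genes of the unfolded protein response of the endoplasmic reticulum 2 were higher and 1 lower (6.90% and 3.45%, against 6.83% and 4.12% of all loci). Among 21 antioxidant genes of NRF2, 4 were higher and 1 lower, with the superoxide dismutase Sod1 and the NRF2 inhibitor Keap1 rising by 0.85 ± 0.14 and 0.55 ± 0.10. That count of 4 fell to 2 without KI naive 1, KI naive 2, KIKO naive 1 or KIKO naive 2. Nfe2l2, the gene of NRF2, was not called (-0.22 ± 0.11, adjusted p = 0.24).

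Of 26 genes of the BCL2 family and of cell death 2 were called higher (7.69%, against 6.83% of all loci). Bbc3, the killer protein PUMA of the BCL2 family and also a p53 target, rose from 20.3, 18.4 and 22.1 to 36.8, 35.8 and 39.1 FPKM (0.85 ± 0.12, adjusted p = 0.0016). Mlkl, which punctures membranes in necroptosis, was listed in no KI naive library and stood at 2.52, 4.70 and 3.19 in KIKO cells, and was described through those libraries only, so it had to differ. Of 27 p53 targets 2 were higher (7.41%) and 0 lower, with 1 higher without KI naive 1 or KI naive 2 and 3 without KI naive 3. Trp53 itself stood at 46.1, 45.1 and 52.6 in KI and 32.0, 42.0 and 39.4 in KIKO cells and was not called (adjusted p = 0.087). Cdkn1a, the p53 target that blocks the cell cycle, did not reach 1 FPKM in any of the 6 libraries. Myc was not called either (-0.29 ± 0.17, adjusted p = 0.30). In the cell cycle lists, 0 were higher and 2 lower of 27 genes of replication (7.41% lower, against 4.12% of all loci). The 2 became 0 without KI naive 2, KI naive 3 or KIKO naive 1 and 1 without KI naive 1 or KIKO naive 2. In addition, 0 of 11 genes of mitosis were called in either direction by limma, with 0 called in any of the 6 leave-outs.

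**Figure D3:**
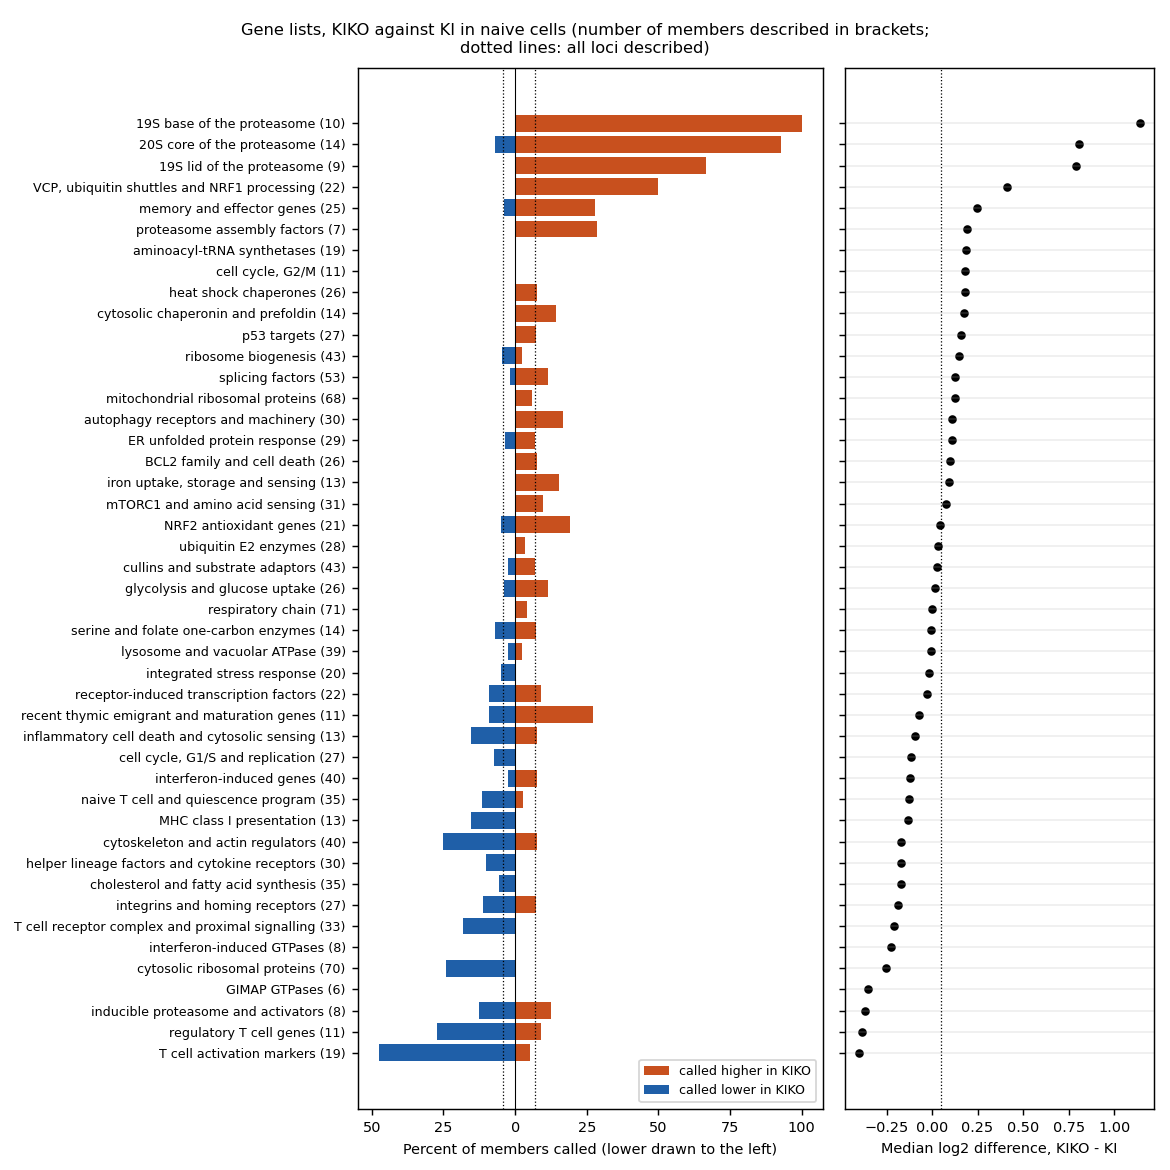
Bars give the share of each list's described members that limma called higher (right) or lower (left) in KIKO naive cells, points give the list's median log2 difference, and dotted lines mark the same values over all 9122 loci described (6.83% higher, 4.12% lower, median 0.05). The 3 proteasome lists and the VCP list stand at the top, and the T cell activation markers, with 9 of 19 members lower, at the bottom.

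Several genes typical of memory T cells were higher in KIKO cells. Of 25 memory and effector genes described, out of 49 listed, 7 were higher (28%, against 6.83% of all loci) and 1 lower. Anxa2, which binds membrane lipids, rose from 1.62, 3.29 and 3.24 to 13.1, 11.6 and 13.8 FPKM (1.93 ± 0.25, adjusted p = 7.7e-04). Vim, the intermediate filament vimentin, rose from 35.9, 36.0 and 44.9 to 97.3, 88.7 and 87.9, and Ahnak, a large scaffold at the membrane, from 2.75, 2.95 and 1.53 to 15.7, 9.57 and 14.8. The genotypes were far apart in all 3, and KIKO naive 2 was not the highest of them in any. S100a6, a calcium-binding protein, differed in this. Its KIKO values were 4.85, 9.91 and 2.72, the highest in KIKO naive 2, the library with neutrophil transcripts, and 0.344, 0 and 0.561 in KI cells. It was described through its KIKO libraries only, so it had to differ. Glipr2 and Capg, which caps actin filaments, rose by 0.84 ± 0.14 and 0.81 ± 0.14. Lgals1 (0.66 ± 0.14) lost the call without KI naive 1 (adjusted p = 0.054). Id2, a transcription regulator of effector cells, went the other way (-0.77 ± 0.17) and lost the call without KI naive 1 or KI naive 3 (adjusted p of 0.060 and 0.055).

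Genes of the actin and tubulin skeleton were more often lower. Of 40 cytoskeleton genes 10 were lower and 3 higher (25% and 7.5%, against 4.12% and 6.83% of all loci), with a median of -0.17. Tuba1a, an alpha tubulin, fell from 349, 357 and 356 to 195, 197 and 188 FPKM (-0.87 ± 0.07, adjusted p = 2.5e-05), one of the tightest differences in the data. Its relative Tuba1c fell from 50.9, 51.4 and 49.5 to 32.4, 38.1 and 31.9. Tagln2, which bundles actin, and Cdc42, the GTPase that sets cell polarity, fell by 0.57 ± 0.10 and 0.39 ± 0.08 on this scale. Actb, the beta actin that most T cells hold in large amount, fell from 1378, 1389 and 1689 to 1103, 827 and 1037, and was not called after quantile normalization or with no filter on low levels (adjusted p = 0.13 and 0.062). The count lower was 6 without KI naive 2, KI naive 3, KIKO naive 2 or KIKO naive 3, and 5 without KIKO naive 1.

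Several receptors that steer T cell activation were lower. Of 19 activation markers 9 were lower and 1 higher, against 4.12% lower among all loci, and the median of -0.40 was the lowest of the 45 pathway lists. Cd28, the costimulatory receptor of naive T cells, listed under the name 2310016D23Rik, fell from 55.6, 55.9 and 57.5 to 33.7, 42.6 and 30.6 FPKM (-0.66 ± 0.13, adjusted p = 0.0076). Tnfrsf18, the costimulatory receptor GITR, fell from 34.6, 27.1 and 25.1 to 14.2, 12.9 and 15.4. Both were low in every KIKO library. Ctla4, an inhibitory receptor, fell from 3.19, 3.73 and 4.45 to 0.663, 0 and 1.76, and Icos, a costimulatory one, from 5.99, 5.81 and 6.67 to 3.45, 3.71 and 4.49. With the 6 naive libraries fitted alone, neither was called (adjusted p = 0.070 and 0.057). Cd5 and Cd6, which dampen receptor signals, were lower by log2 differences of -0.63 ± 0.14 and -0.43 ± 0.09, without calls when KI naive 1 (adjusted p of 0.053 and 0.056) or KIKO naive 2 (0.057 and 0.052) was left out. Cd5 also lost its call without KI naive 3 (0.057) and Cd6 without KI naive 2 (0.054). The member that went up was Cd69, an early sign of activation, at 10.3, 9.31 and 11.2 against 5.75, 4.97 and 6.36. Its call ended without KI naive 1, KI naive 2 or KIKO naive 3 (adjusted p of 0.060, 0.073 and 0.063). The count lower was 6, 6 and 5 without KI naive 1, KI naive 3 and KIKO naive 2.

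Izumo1r, a folate receptor found on regulatory T cells, stood at 12.9, 10.9 and 14.9 FPKM in KI and 2.22, 1.94 and 2.55 in KIKO cells (-2.10 ± 0.14, adjusted p = 6.1e-06). With transcript starts alone its difference was 0.15, so this fall rests on how its level was taken. Of 11 regulatory T cell genes described, Izumo1r, Tnfrsf18 and Ctla4 were lower (27.3%, against 4.12% of all loci) and Capg was higher. Foxp3, the factor that defines these cells, stood at 2.64, 3.67 and 3.25 in KI and 1.19, 3.29 and 1.06 in KIKO cells, which overlap (adjusted p = 0.13). KIKO naive 2, the library with neutrophil transcripts, alone lay within the KI range, and without it Foxp3 was called lower (adjusted p = 0.0083).

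Signalling genes next to the T cell receptor were lower in part. In the receptor complex and its nearby signalling, 6 of 33 genes were lower (18.2%, against 4.12% of all loci) and 0 higher. Of the 33 differences 24 were below 0 (median -0.21). Sh2d2a, an adaptor that binds the kinase LCK, fell from 40.7, 34.8 and 38.1 to 25.5, 21.1 and 25.3 FPKM (-0.64 ± 0.12, adjusted p = 0.0070). Ptpn6, the phosphatase SHP-1 that limits receptor signals, fell from 66.9, 64.1 and 68.7 to 49.9, 49.2 and 49.1. The signalling chains Cd247 and Cd3e stood at 256, 207 and 245 against 339, 324 and 358, and at 137, 122 and 149 against 171, 167 and 210. Cd247 lost the call without KI naive 1, KI naive 3 or KIKO naive 2 (adjusted p of 0.067, 0.071 and 0.072), and Cd3e without any 1 library but KIKO naive 3 (0.056 to 0.13). Neither was called after rescaling to an equal sum (0.059 and 0.087). Cd4 was not called, at 203, 186 and 221 in KI and 154, 137 and 172 in KIKO cells (adjusted p = 0.12), although the genotypes did not overlap. The count lower was 2, 3 and 2 without KI naive 1, KI naive 3 and KIKO naive 2. It was 3 after rescaling to an equal sum.

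**Figure D4:**
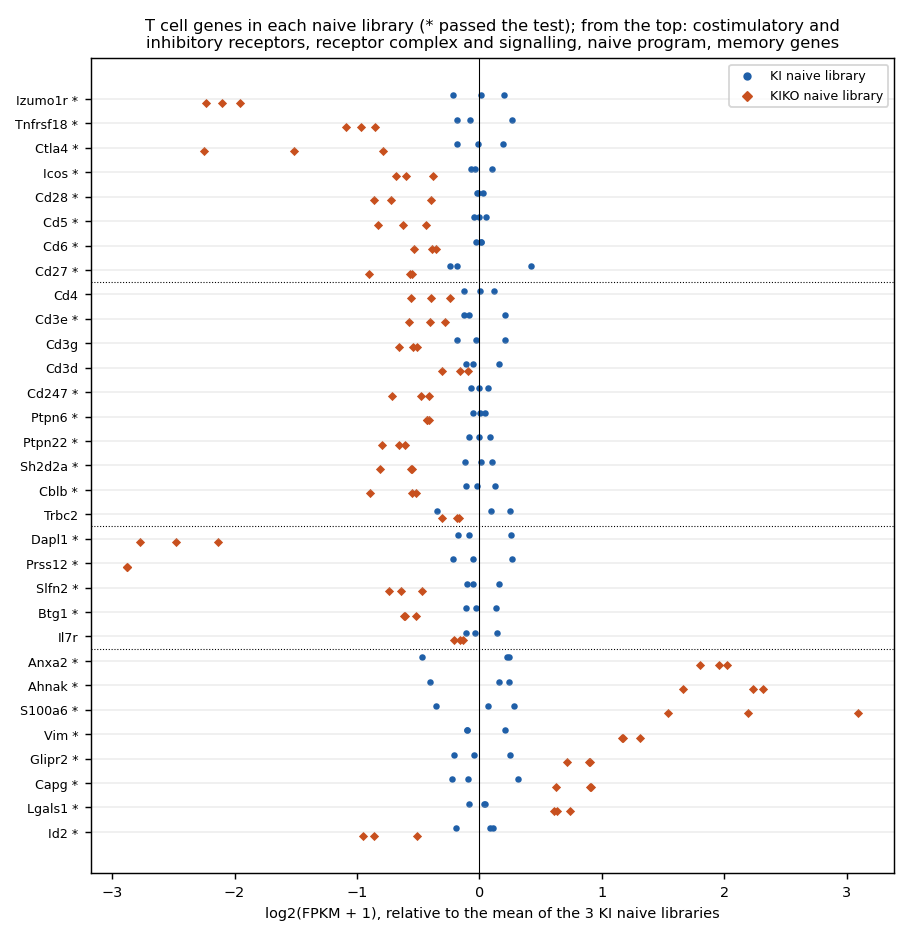
Each row is a T cell gene, and each point is 1 library, drawn as log2(FPKM + 1) minus the mean of the 3 KI naive libraries. KIKO libraries (diamonds) lie left of the KI libraries (circles) for all 8 costimulatory and inhibitory receptors shown and for Dapl1 and Prss12, and right of them for the memory genes other than Id2.

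The variable segments of the receptor were lower too, a group chosen after its values were seen. Each T cell uses 1 alpha and 1 beta variable segment, joined from a long row of segments on chromosomes 14 and 6. Of 64 alpha segments described, 19 were called lower (29.7%, against 4.12% of all loci) and 0 higher. Of the 64, 2 were described through the KI libraries only and so had to be lower. They were Trav6d-5, which is among the 19, and Trav11n, which was not called. Of the 64 differences 57 were below 0 (median -0.79). Summed over the 92 listed alpha segments, the level was 344, 311 and 355 FPKM in KI and 184, 171 and 211 in KIKO cells. Summed over 21 beta segments it was 717, 691 and 710 against 512, 469 and 521. No KIKO sum reached a KI sum of the same chain (exact two-sided permutation test, p = 0.1 for alpha and for beta, the smallest that 3 against 3 can give). Trav8-1 fell from 9.18, 9.64 and 10.9 to 5.35, 5.21 and 5.34 (-0.79 ± 0.14, adjusted p = 0.0046), and Trbv14 from 10.7, 9.64 and 12.7 to 6.64, 4.31 and 5.76. Along the locus, 12 of the 32 upstream and 7 of the 32 downstream alpha segments were lower, with medians of -0.84 and -0.58. The 5 segments nearest the downstream end, Trav13-4-dv7, Trav3-4, Trav17, Trav19 and Trav21-dv12, were not called, with differences of 0.52, 0.16, 0.06, -0.27 and -0.24. Without KIKO naive 2, Trav13-4-dv7 was called higher (adjusted p = 0.032). Many of these segments are near-identical copies that may share reads, so their separate values are uncertain. The count of alpha segments lower was 9 without KI naive 1, 10 without KI naive 2, 12 without KI naive 3 and 12 without KIKO naive 2. For beta segments it was 8 of 17 (47.1%). It was 4, 3, 2, 5 and 4 without KI naive 1, 2 and 3 and KIKO naive 1 and 2. The shared beta constant region Trbc2 was not called (-0.22 ± 0.17). The alpha constant region Trac varied widely within each genotype, at 99.5, 4.52 and 0 in KI and 0, 3.79 and 78.6 in KIKO cells. It thus gives no check on the alpha segments.

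**Figure D5:**
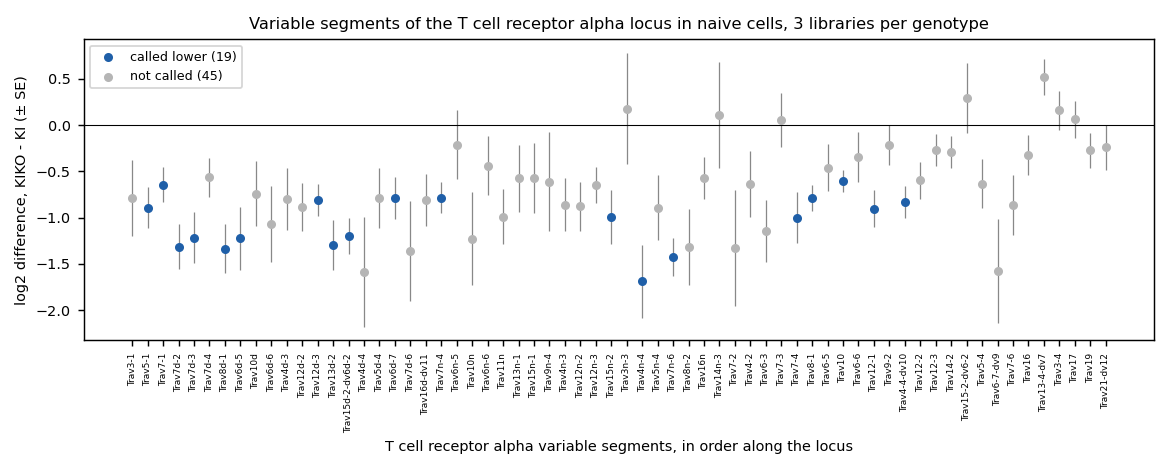
Each point is the log2 difference (KIKO minus KI) of 1 alpha variable segment with its standard error over 3 libraries per genotype, in order along the locus from its upstream end. The 19 segments called lower are spread over the upstream and middle segments, and the 5 at the downstream end were not called.

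Of 35 genes that mark resting naive T cells, 4 were lower (11.4%, against 4.12% of all loci) and 1 higher, with a median of -0.13. The higher one, Igfbp4, which binds insulin-like growth factors, lost its call without each of the 6 libraries in turn (adjusted p of 0.062 to 0.095). Dapl1, a gene of naive T cells that the files leave unnamed, fell from 62.8, 66.6 and 84.8 to 11.9, 9.49 and 15.4 FPKM (-2.46 ± 0.37, adjusted p = 0.0021). The protease gene Prss12 had 6.07, 5.32 and 7.84 FPKM in KI cells and was listed in no KIKO naive library. It was described through the KI libraries only, as were Khdrbs3 and Fbxl14, given below. Slfn2, which keeps T cells quiescent, fell from 449, 464 and 539 to 289, 348 and 309. Btg1, another quiescence gene, was at 90, 90.5 and 96.3 against 128, 136 and 152 and lost the call without KI naive 3 (adjusted p = 0.061). Il7r, the receptor for the survival signal IL-7, was not called (-0.17 ± 0.51, adjusted p = 0.87). It stood at 251, 238 and 284 in KI and 234, 230 and 222 in KIKO cells, which do not overlap. Its standard error is from the limma fit of all 12 libraries. With the 6 naive libraries fitted alone it was not called either (adjusted p = 0.25). Among receptors for other signals, P2ry10, a lipid receptor that guides migration, fell from 33.1, 31.5 and 37.6 to 14.4, 14.6 and 16.5. With transcript starts alone it was not called (adjusted p = 0.97). Ifngr1, a chain of the interferon-gamma receptor, was at 116, 97.5 and 127 against 255, 211 and 243 and lost the call without any 1 library but KIKO naive 3 (adjusted p of 0.055 to 0.088).

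The largest falls by rule, outside these lists, were in genes of many kinds. Khdrbs3, an RNA-binding protein, stood at 5.52, 5.14 and 4.63 FPKM in KI and 0.0190, 0.162 and 0.725 in KIKO cells. Cnga1, a cation channel subunit, fell from 12.1, 12.9 and 13.4 to 3.28, 3.58 and 3.07 (-1.68 ± 0.17, adjusted p = 1.2e-04). Klhl5, an adaptor of cullin ligases, fell from 14.9, 19 and 20.3 to 4.86, 4.50 and 6.12. Each had all KIKO libraries far below KI. Adh1, an alcohol dehydrogenase, and Zmat1, a zinc finger protein, fell by 1.39 ± 0.22 and 1.28 ± 0.16 on the log2 scale. Tent5a, a poly(A) polymerase, was lower (-2.19 ± 0.40) but was not called in the 6 naive libraries alone (adjusted p = 0.064). App and Shld1, at -1.22 ± 0.21 and -1.23 ± 0.20, were not called with transcript starts alone (adjusted p = 0.059 and 0.60). Fbxl14, an F-box protein, had levels of 18.8, 36.6 and 38.9 FPKM in KI naive cells and was listed in none of the other 9 libraries of the series. The exon lengths of its locus did not settle whether the name is right. BE692007, Spaca1 and Irak3 were also among the 15 largest, and each lost its call without at least 2 of the libraries. The libraries were KI naive 2, KI naive 3, KIKO naive 1 and KIKO naive 3, with adjusted p up to 0.076, for BE692007. They were the 3 KI libraries and KIKO naive 2, with adjusted p up to 0.080 and 0.094, for Spaca1 and Irak3.

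Interferon-induced genes were called at shares near those of all loci. Of 40 such genes 3 were higher and 1 lower (7.5% and 2.5%, against 6.83% and 4.12% of all loci), with a median of -0.12. The count higher was 1 without any 1 library other than KIKO naive 1, where it was 2. Of 8 interferon-induced GTPases limma called 0 in either direction, and 0 in any of the 6 leave-outs. Isg20, an RNA exonuclease whose locus the files leave unnamed, rose from 3.20, 3.21 and 3.93 to 17.9, 17.9 and 18.5 FPKM (2.10 ± 0.18, adjusted p = 2.2e-05). Ifi214, a DNA sensor relative, fell from 64.7, 66.5 and 80.3 to 43.8, 42.5 and 46.3. Of 13 genes of MHC class I presentation 2 were lower (15.4%, against 4.12% of all loci). They were B2m, the shared light chain, at 962, 832 and 993 against 1323, 1332 and 1667, and the heavy chain H2-D1, at 614, 568 and 667 against 840, 829 and 920. After quantile normalization neither was called (adjusted p = 0.098 and 0.34), and H2-D1 also lost its call without KI naive 1, KI naive 3 or KIKO naive 2 (0.051, 0.058 and 0.056). Prf1, the pore protein of killer cells, stood at 3.73, 3.35 and 5.28 in KI and 1.54, 0 and 1.61 in KIKO cells, and its call of lower ended without KI naive 1 or KI naive 3 (adjusted p of 0.059 and 0.081).

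Genes of cytosolic ribosomal proteins were lower in KIKO cells in 63 of 70 cases (median -0.25). Of the 70, 17 were called lower (24.3%, against 4.12% of all loci) and 0 higher. Rps16 fell from 700, 653 and 770 to 456, 451 and 435 FPKM (-0.66 ± 0.10, adjusted p = 0.0018), and Rps25 from 367, 382 and 420 to 263, 265 and 249. These 2 kept their calls under all 3 other scalings. The list as a whole depended on the scaling: its median was -0.32 with median-ratio scaling, -0.15 with libraries rescaled to an equal sum and -0.04 after quantile normalization, which left 6 called lower and 2 called higher. The count lower was 9, 11, 8, 10 and 9 without KI naive 1, 2 and 3 and KIKO naive 1 and 3, and 20 without KIKO naive 2. Rpl7a, the furthest down at 210, 79.6 and 132 against 462, 301 and 466, shares much of its sequence with pseudogenes and its value is uncertain. Genes of ribosome assembly (1 higher and 2 lower of 43) and of mitochondrial ribosomes (4 higher and 0 lower of 68) had 2.33% and 5.88% of members higher and 4.65% and 0% lower, below 6.83% higher among all loci. The 4 became 0 without KI naive 1, KI naive 2 or KIKO naive 3 and 1 without KI naive 3 or KIKO naive 2.

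Noncoding genes that host small nucleolar RNAs in their introns went the other way from the ribosomal proteins, a group that was also chosen after its values were seen. These hosts belong, like ribosomal protein genes, to the transcripts known to carry a pyrimidine tract at their start. Of 8 described, 4 were higher and 1 lower (50% and 12.5%, against 6.83% and 4.12% of all loci), with a median of 0.78. Gas5 rose from 171, 146 and 205 to 294, 410 and 322 FPKM (0.97 ± 0.14, adjusted p = 0.0019), and Snhg1 from 25.8, 26.1 and 26.6 to 42.7, 60.5 and 59.7. Snhg12 was at 40.1, 40.8 and 33.9 against 18.8, 14.3 and 26.4. Snhg5 (0.62 ± 0.15) kept its call only without KIKO naive 1 among the leave-outs (adjusted p up to 0.076 without the others). Snhg8 went down (-0.75 ± 0.16) and lost the call without KI naive 2, KI naive 3, KIKO naive 2 or KIKO naive 3 (0.050 to 0.059).

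Metabolic lists moved little. Of 26 genes of glycolysis 3 were higher and 1 lower (11.5% and 3.85%, against 6.83% and 4.12% of all loci). Gpi1, an early enzyme, rose from 123, 109 and 129 to 168, 155 and 164 FPKM. Ldha, which makes lactate at the end of the pathway, fell from 127, 123 and 130 to 80.3, 72.2 and 85.0 (-0.67 ± 0.13, adjusted p = 0.0073). The count higher was 2 without KI naive 2 and 1 without any other library. In cholesterol and fatty acid synthesis 0 of 35 were higher and 2 lower (5.71% lower, against 4.12% of all loci). Neither of these 2 was called with any 1 library left out. Of 71 genes of the respiratory chain 3 were higher (4.23%, against 6.83% of all loci) and 0 lower. The 3 became 1 without KI naive 1 or KI naive 3 and 2 without KI naive 2 or KIKO naive 3. Of 19 aminoacyl-tRNA synthetases limma called 0 in either direction, with 1 called higher without KIKO naive 2. Among 53 splicing factors 6 were higher and 1 lower (11.3% and 1.89%, against 6.83% and 4.12% of all loci). Srsf11, Snrnp70 and Luc7l rose by 0.79 ± 0.14, 0.62 ± 0.11 and 0.78 ± 0.13. The count higher was 3 without KI naive 1, KI naive 2, KIKO naive 2 or KIKO naive 3, and 4 without KI naive 3. Ubtf, which drives transcription of ribosomal RNA, fell from 49.8, 48.5 and 60.1 to 37.4, 37.1 and 37.9.

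Promoter matches were about as frequent among called genes as among all described genes, given here as shares with no test. The antioxidant response element was held by 87 of 493 genes called higher (17.6%) and by 52 of 264 called lower (19.7%), beside the 16.9% of all described genes. For the heat shock element GAANNTTC the shares were 7.30% of genes called higher, 4.92% of those called lower and 6.61% of all described. The E-box CACGTG was held by 13%, 11.0% and 12.5%, and the interferon-stimulated response element GAAANNGAA by 7.51%, 10.2% and 8.45%. Among genes that rose by more than 1, 15 of 76 (19.7%) held the antioxidant response element. A match says only that these letters are in the window.

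The shape of transcripts was compared through the share of each event, such as a transcript start or a skipped exon, in its locus. Of 50411 events limma called 9 (0.0179%), 8 higher and 1 lower, with 3766 at an unadjusted p under 0.05. A transcript start of Cd4 (GRCm39, minus strand of chromosome 6, 124877429 to 124877702) was listed in no KI library. It stood at 34.1, 31.9 and 40.4 FPKM in KIKO cells. The Cd4 locus levels were 154, 137 and 172 in KIKO and 203, 186 and 221 in KI cells. With transcript starts alone Cd4 differed by 5.18, so the KI libraries listed little or no start of this gene. Whether the start is missing from KI cells or only from the listing was not tested. A form of Sarnp, an mRNA export factor, that skips the exon at chromosome 10, 128687607 to 128687735, was listed in no KI library and stood at 28.9, 50.3 and 38.4. Dnajb6, a chaperone, kept an intron at chromosome 5, 29958650 to 29959435, at 12.9, 16.1 and 16.7 FPKM in KIKO cells and in no KI library, and this stretch gave 3 of the 9 calls. Dph5 and Lsp1 gave 1 higher event each, and the other was a start of an unnamed locus. The event called lower lies in Hmgn5, a nucleosome-binding protein, at 33.5, 30.7 and 31.0 in KI and in no KIKO library. Each of these was present in all 3 libraries of 1 genotype, but the calls did not hold. With 1 library left out 0 were called, except without KIKO naive 3, where 0 higher and 2 lower were called. At least 1 of those 2 was not among the 9. Unadjusted p under 0.05 then numbered 3059 to 4592.

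By position, chromosome 14 had the highest share of loci called lower, 36 of 372 (9.68%), against 1.82% to 6.21% on the other chromosomes. Without the receptor alpha segments it was 17 of 307 (5.54%). The share called higher ran from 4.48% on chromosome 16 to 9.35% on chromosome 11.

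The activated libraries give the same genotypes in other samples. There, 1943 of the loci described were called higher (21.3%) and 1774 lower (19.4%) in KIKO cells. Of the 623 loci higher in naive cells 336 (53.9%) were also called higher after activation and 41 called lower. Of the 376 lower in naive cells 186 (49.5%) were also called lower and 18 called higher. Vcp had a difference of 1.28 after activation, Gabarapl1 3.19, Psmd14 1.14 and Psmb8 1.80, while Ptpn22 turned from -0.69 ± 0.15 in naive to 0.95 ± 0.15 in activated cells. Ptpn22, a phosphatase that restrains receptor signals, lost its naive call without KI naive 1 or KIKO naive 2 (adjusted p of 0.061 and 0.051).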

How the data were processed

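Poly(A) RNA from 15 ng of total RNA per sample was made into libraries with a stranded SMART-seq kit, per the labels' protocols, and FastQC 0.11.9, cutadapt 2.9 and HISAT2 2.2.0 are named in the submitters' processing notes. No source used here names the program that made the event tables. The deposited files give FPKM per transcript event (start, end, exon or intron), scaled by the authors, so the read depth is unknown. Coordinates follow GRCm39.

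Repeated event lines were dropped. A locus level is the largest of its summed starts, its summed ends and its largest event, and an unlisted locus is 0. Loci at 1 FPKM or more in at least 3 of the 12 libraries (9743) were tested as log2(FPKM + 1) with limma 3.58.1 (R 4.3.3), using a mean-variance trend, over 4 groups of 3 libraries. Calls have a Benjamini-Hochberg adjusted p under 0.05. In the 6 naive libraries alone, limma was run on event shares, log2(event FPKM + 1) minus log2(locus FPKM + 1), in loci at 5 FPKM or more. The code was tested on simulated data with known changes. Marker sums and receptor segment sums used exact two-sided permutation tests. Gene names in the files were checked against GENCODE M21 exon lengths, a step added after the data were seen: 494 of 15125 loci matched another gene and were renamed, and 3610 were undecided and kept any file name, Ahnak and Fbxl14 among them. The genes named are, by rule, the 15 largest differences each way among called, non-overlapping loci with a gene symbol and a mean of at least 5 FPKM in either genotype (predicted genes, pseudogenes, receptor segments and renamed loci left out), and, of 45 pathway and 11 marker lists, up to 5 members with the smallest p, those against their list and those that define it. Receptor segments, small nucleolar RNA hosts and a few other list members were chosen after their values were seen. Members and lists were chosen with earlier results of these data known. Up to 20 alternatives were run.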

Additional observations from a re-analysis of the deposited data

Results flagged for a closer look

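For 11 of the 30 genes with the largest rises and falls, the genotype difference in naive cells differed from that in activated cells by limma's test of the difference itself (adjusted p under 0.05). These genes were picked for their naive difference, which the test uses again, so their share is not set against the 2010 of all 9743 loci that passed. The values below are the naive minus the activated log2 difference. Acot7 had the widest gap among the genes that rose in naive cells, 2.30 (SE 0.30). Its activated libraries stood at 71.7, 75.4 and 84.9 FPKM in KI and 59.4, 72.7 and 44.6 in KIKO cells. Stx1a was at 1.23, with a smaller rise after activation. Fam219a and Nckap1 were at -0.82 and -0.84, since both rose more after activation (2.94 and 2.43 on the log2 scale).

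Fbxl14 was at -4.95 and was listed in no activated library. Khdrbs3 was at -2.37 and Cnga1 at -1.34. Both had activated levels under 2 FPKM in every library. Prss12 was at -1.59, Zmat1 at -0.78, Shld1 at -1.12 and App at -1.13. Apart from Fbxl14 and Shld1, these genes were low in activated KI cells, at up to 2.01 FPKM for Prss12.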

How the results depend on the processing

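The total of 999 loci called, 623 higher and 376 lower, was 494 to 731, with 306 to 474 higher and 169 to 305 lower, when 1 library was left out. It was 70 (56 and 14) when a log2 difference of more than 0.5 was tested for. Rescaling to an equal sum gave 1109 higher, and the 6 naive libraries fitted alone gave 386 higher and 291 lower, 677 in all. Deviations of same-numbered KI and KIKO naive libraries correlated at 0.06, -0.01 and -0.03, against -0.07 to 0.07 for other numbers. With 3 libraries per genotype this cannot show whether the numbers stand for pairs. Same-numbered naive and activated libraries were not compared. With the replicate block the count was 867, of which 816 are among the 999, and with the replicate block in the 6 naive libraries alone it was 58 (39 higher and 19 lower). The 9 events called became 180 with a pseudocount of 0.1, 92 in loci at 10 FPKM or more, 112 with no trend, 0 with the replicate block (3090 at an unadjusted p under 0.05) and 0 to 2 with 1 library left out. With transcript starts alone, the difference turned to 0.15 for Izumo1r, 0.11 for P2ry10 and 5.18 for Cd4. The cause of these changes was not tested. Of 118 called genes named in the text, 77 kept their call under every setting but the minimum difference and the blocked fit of 6 libraries. Without read depth, counting error cannot be given.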
